A study of Mus musculus with 4 samples.

Results

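Keratin-associated proteins and hair keratins, the building blocks of the hair shaft and of the sheath around it, were followed in the inflamed ears of 4 mice. The members are the genes whose name on the array starts with Krtap, or is that of an inner root sheath or hair keratin (Krt25 to Krt28, Krt31, Krt32, Krt33a, Krt33b, Krt34 to Krt36, Krt71, Krt73 and Krt81 to Krt86). They came to 70 genes of 34738 on the array, read by 89 probes on 98 spots, and 64 of them were among the 23632 genes tested. The choice used names only and no measured value. Krt72 had no spot under that name and is not counted.

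Each array held RNA of the ear of 1 mouse, collected 48 h after the contact allergen 2,4-dinitrofluorobenzene (DNFB) was applied. The 2 mice called wild type carried the genotype RelAfl/fl, in which the gene of the NF-kB subunit RelA is flanked by recombination sites and intact. The 2 mice called mutant (RelAE-MUT in the labels) carried K14Cre RelAfl/fl, in which a recombinase driven by the keratin 14 promoter removes RelA in basal keratinocytes and the cells that descend from them, those of the hair follicle included. Only the mutants carried the recombinase, all 4 ears were treated with DNFB, and age, sex and strain are not in the labels. Nothing says whether mice of 1 group shared a litter, so p-values measure the spread between these samples.

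A hair is made by follicle cells that leave the matrix, fill with keratin filaments and die. Keratins pair as 1 acidic (type I) and 1 basic (type II) chain: Krt25 to Krt28 pair with Krt71 to Krt73 in the inner root sheath, which moulds the growing hair, and Krt31 to Krt36 pair with Krt81 to Krt86 in the shaft. In the cortex and cuticle of the shaft the filaments are embedded in keratin-associated proteins (KAPs), small proteins rich in cysteine (the high sulphur and ultra-high sulphur families) or in glycine and tyrosine, which are cross-linked to the keratins. Follicles make these transcripts while they build a shaft, and the family is little used elsewhere in skin.

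Levels are log2 intensities relative to the 75th percentile of the array, and the 4 values of a gene are given in the order wild-type mouse 1, wild-type mouse 2, mutant mouse 1, mutant mouse 2. On each array 61.21% to 64.27% of spots were well above background and 0 were saturated, and the number of arrays limits the precision of every comparison. Markers of the ear were detected, with 6 of 6 cartilage genes, 6 of 6 skeletal muscle genes and 4 of 4 basal keratinocyte genes tested. Rela stood at 4.48, 4.60, 4.59 and 4.72 (difference 0.11 ± 0.12, adjusted p = 0.887 in limma's fit), and its spot lies in a corner of mutant mouse 2's array that is damaged. Of the member probes 4 lie in that corner, which are the only probe of Krt32 and 1 probe each of Krtap20-2, Krtap5-2 and Krtap5-5.

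The hair genes differed widely between mice of the same genotype. Over all 70 genes the median level was -0.20 in wild-type mouse 1, -3.15 in wild-type mouse 2, -0.70 in mutant mouse 1 and 1.50 in mutant mouse 2. Mutant mouse 2 was the highest and wild-type mouse 2 the lowest of the 4 mice in 58 of the 70 genes (82.9%), an order that 6.31% of all genes on the array showed and that was chosen after the values were seen. The median gene spanned 4.30 log2 units from its lowest to its highest mouse, and 44 of 70 spanned over 4 log2 units. In RNA from whole ears, fewer cells of a type and less RNA per cell cannot be told apart.

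**Figure D1:**
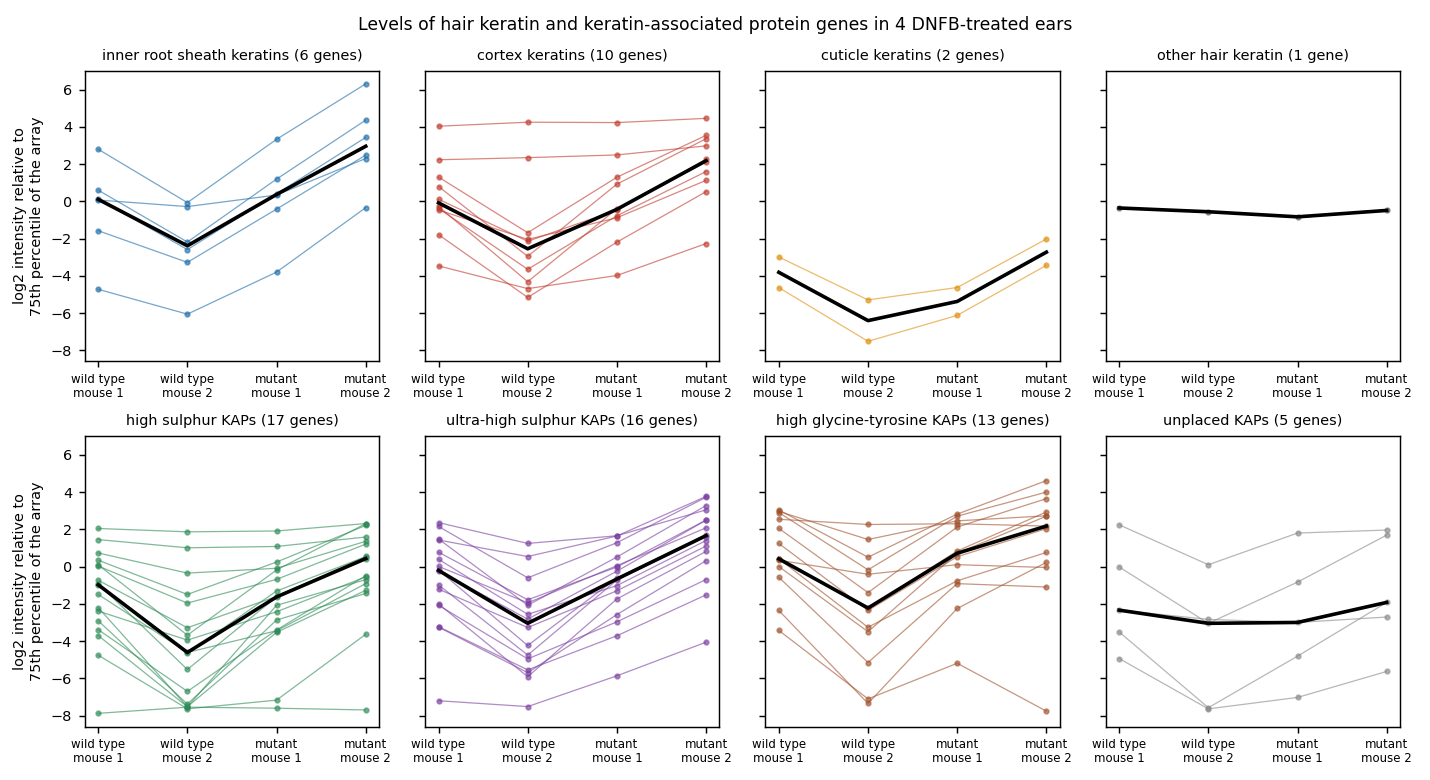
Level on the log2 scale, with the 75th percentile of each array at 0 (vertical axis), of each of the 70 genes in the 4 mice, 1 panel per group of genes. Points are single mice, thin lines join the values of 1 gene, and the thick black line is the group's median, which is lowest in wild-type mouse 2 and highest in mutant mouse 2 in the panels of the inner root sheath, cortex and cuticle keratins and of the high sulphur, ultra-high sulphur and high glycine-tyrosine families.

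The wild-type mice stood more than 1 log2 unit apart in 58 of 70 genes, against 5.75% of all genes on the array, and in 54 of the 64 tested, against 1.6% of the genes tested. The mutant mice stood more than 1 log2 unit apart in 58 of 70 as well, against 6.59%, and in 53 of the 64 tested, against 2.34%. The median gene was 2.72 higher in wild-type mouse 1 than in wild-type mouse 2 and 2.11 higher in mutant mouse 2 than in mutant mouse 1. Among the genes tested, 51 of the 64 members (79.7%) were higher by over 1 log2 unit in wild-type mouse 1 than 2 and in mutant mouse 2 than 1, and 0.537% of the genes tested were. That is 127 genes in all, so that members made up 40.2% of them. The pattern was chosen after the members' values were seen, so these shares are a description only. With the spots of the damaged corner left out, 22099 genes could be ranked by their standard deviation within genotypes, and 25 of the 50 with the widest spread, 43 of the top 100 and 52 of the top 200 were members.

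**Figure D2:**
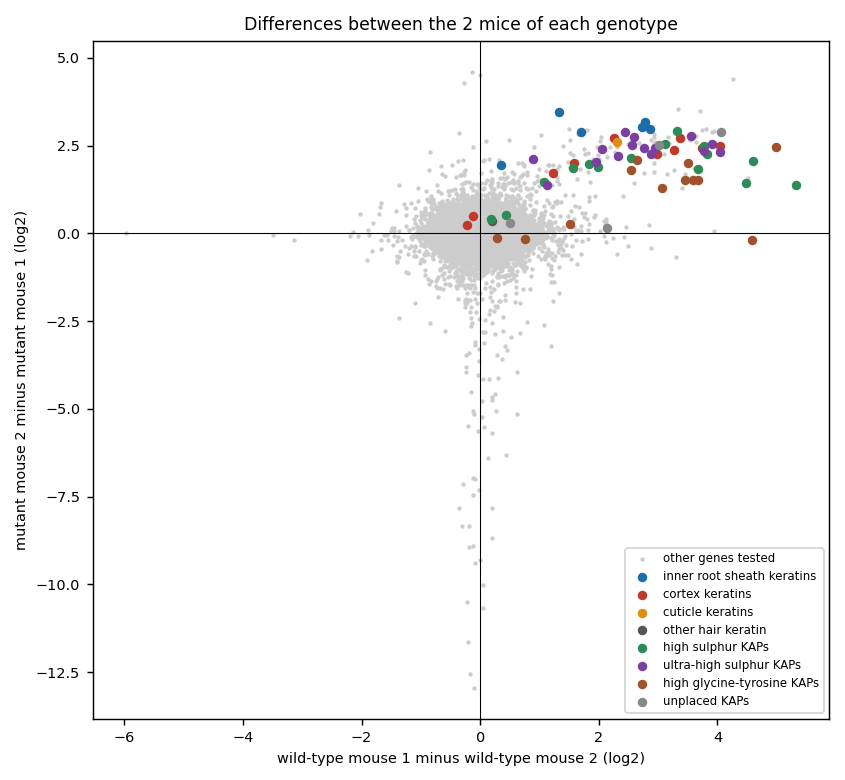
For each gene tested, the log2 difference between the wild-type mice (mouse 1 minus mouse 2, horizontal axis) against that between the mutant mice (mouse 2 minus mouse 1, vertical axis); grey points are other genes and coloured points the members by group. Most members lie at the upper right, with 51 of 64 past 1 log2 unit on both axes, and most grey points lie near 0 on both.

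Between genotypes, 0 of the 64 members tested passed limma's test at an adjusted p under 0.05, beside 0.0169% of the genes tested (4 of 23632). The smallest adjusted p of a member was 0.724, that of Krt28. At an unadjusted p under 0.05, 2 members were higher in the mutants (Krt26 and Krt28, 3.12% of 64, beside 2.96% of the genes tested) and 0 were lower (beside 3.55%). The mean was higher in the mutants in 65 of 70 genes, beside 57.1% of all genes on the array, with a median difference of 1.88 against 0.02. Both mutants lay above both wild types in 21 of the 70 genes, beside 15.8% of all genes on the array, and both lay below in 0 of 70, beside 15.9%. Among the 64 tested these were 20, beside 18.9% of the genes tested, and 0, beside 17.4%. The filter on dim probes kept 13 of the 64 through the mutants alone, 7 of the 20 among them, so the count over tested genes is a description only. Among members above background on all 4 arrays it was 13 of 51, beside 18.7% of such genes. Exact permutation of 2 mice against 2 cannot give a two-sided p under 0.3333. The difference rested on wild-type mouse 2 and mutant mouse 2: its median over the 70 genes was 0.59 without wild-type mouse 2 and 0.78 without mutant mouse 2, and 3.15 without wild-type mouse 1 and 2.90 without mutant mouse 1, with 0 members past the threshold each time.

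**Figure D3:**
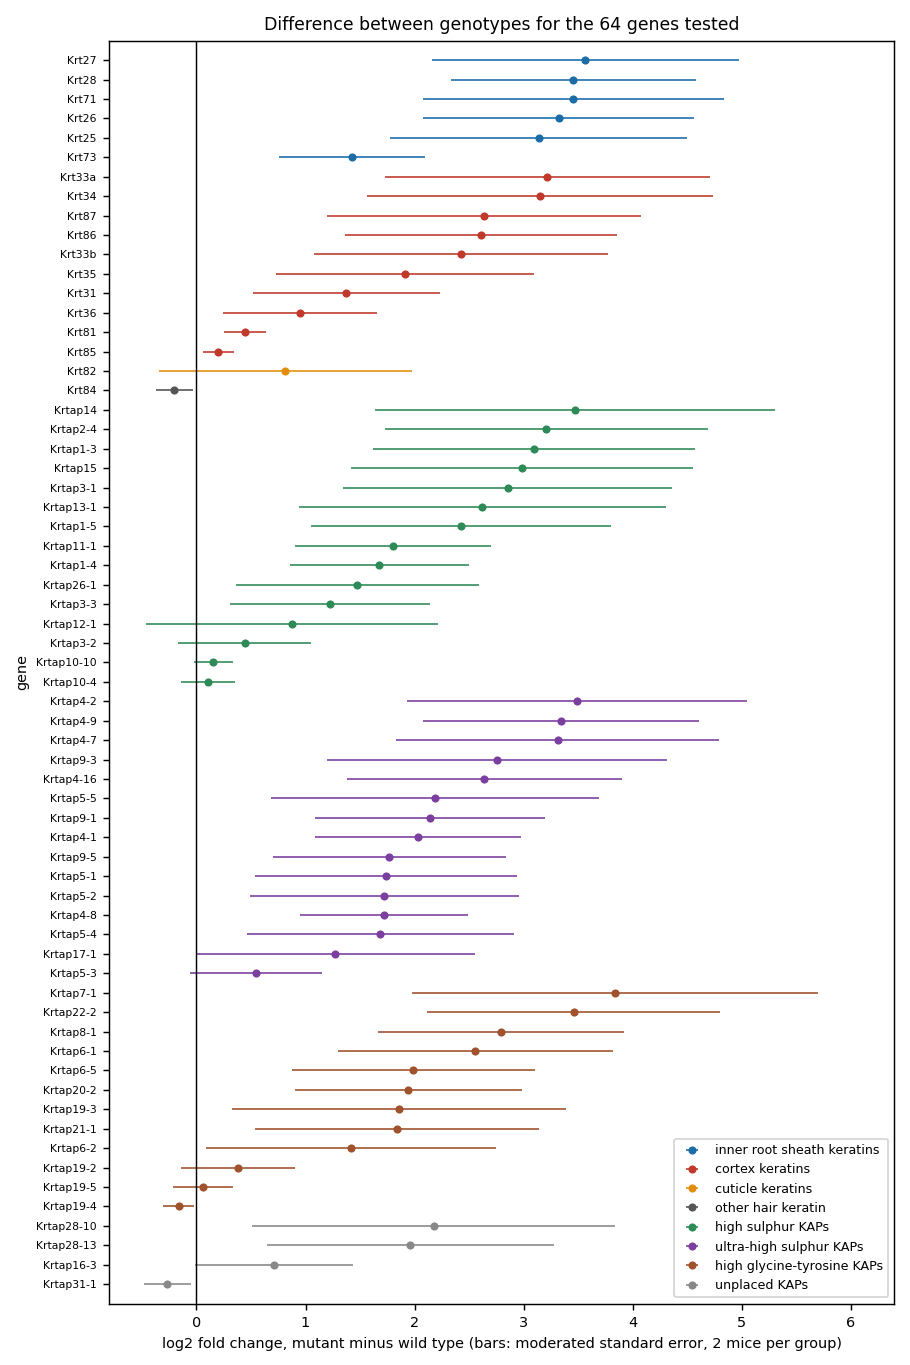
Log2 fold change, mutant minus wild type (horizontal axis), of the 64 members tested, by group; points are means of 2 mice per group and bars limma's moderated standard errors. Most genes lie right of 0 with bars whose median length is 0.56 of the difference, and Krt85, Krt84, Krtap10-4 and Krtap19-4 lie near 0 with short bars.

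All 6 inner root sheath keratins were higher in both mutants than in both wild types, beside 18.9% of the genes tested. Their adjusted p in limma's fit lay between 0.724 and 0.824. They share 1 order of the same 4 mice, so the count is a description only. Krt72, listed on the array under another name and given below, did not share that order. The group's median level was 0.11, -2.38, 0.37 and 2.96, and its median difference 3.39. Krt71, the type II chain whose mutations curl the coat of several mammals, stood at 2.79, -0.07, 3.33 and 6.30, a difference of 3.45 ± 1.38 (moderated standard error, 2 mice per group). Its highest and lowest mouse were 82.9-fold apart. The type I chain Krt27 stood at 0.60, -2.18, 1.19 and 4.36 (3.57 ± 1.41). Krt25, also type I, stood at 0.14, -2.59, 0.40 and 3.43 (3.14 ± 1.36). In all of these mutant mouse 2 stood about 3 log2 units above mutant mouse 1, the next highest, and mutant mouse 1 stood just above wild-type mouse 1. Krt28 stood at -1.58, -3.27, -0.42 and 2.48, which gave the smallest adjusted p of all members (0.724 in limma's fit). Krt26 stood at -4.72, -6.05, -3.80 and -0.34. It was not well above background in wild-type mouse 2, and the filter on dim probes kept it through the mutants alone. Krt73 differed from the others in that the wild-type mice were close, at 0.07 and -0.28, with 0.34 and 2.30 in the mutants.

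Of the 10 cortex keratins, 8 had mutant mouse 2 highest and wild-type mouse 2 lowest, beside 7.18% of the genes tested. In 2 of them (Krt33a and Krt81) both mutants lay above both wild types, beside 18.9%. The group's median difference was 2.17, from medians of -0.08, -2.55, -0.43 and 2.18. Krt33a, a type I chain of the cortex, stood at 0.80, -2.95, 0.92 and 3.36 (3.22 ± 1.49, adjusted p = 0.819). Krt34, also type I, stood at -0.28, -4.31, -0.39 and 2.10 (3.15 ± 1.59). The type II chain Krt86 stood at 1.30, -1.68, 1.29 and 3.54 (2.61 ± 1.25). In these genes wild-type mouse 1 and mutant mouse 1 nearly coincided, and the difference between genotypes came from the other mouse of each group. Krt33b, Krt35, Krt31 and Krt36 had the same order with differences of 2.43, 1.91, 1.38 and 0.95. The gene named Krt83 on the array, now Krt87, stood at -1.79, -5.15, -2.19 and 0.52 (2.64 ± 1.44). Krt81 (2.23, 2.34, 2.49 and 2.98) and Krt85 (4.03, 4.25, 4.23 and 4.45) were nearly level. The only probe of Krt81 matched the Krt87 probe at 92.7% over 55 bases and the Krt85 probe used here at 89.5% over 57. Whether it reads Krt81 alone was not tested.

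The cuticle keratins, which form the scales on the surface of the hair, were measured near background. Krt82 stood at -2.99, -5.29, -4.62 and -2.02 (0.82 ± 1.16, adjusted p = 0.918) and was not well above background in wild-type mouse 2. Krt32 was well above background on 1 array of each genotype and was not tested, with values of -4.63, -7.51, -6.12 and -3.43. In both, mutant mouse 1 lay closer to wild-type mouse 2 than to wild-type mouse 1. Krt84, a hair keratin best known from the papillae of the tongue, stood at -0.36, -0.56, -0.83 and -0.49 and spanned under 1 log2 unit.

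The 17 high sulphur KAP genes had median levels of -0.97, -4.61, -1.62 and 0.43 and a median difference of 1.68, with adjusted p between 0.818 and 0.956 in the 15 tested. The KAP1 genes, matrix proteins of the cortex, had the order of most members: Krtap1-3 stood at -3.38, -6.69, -3.40 and -0.49 (3.09 ± 1.47), and Krtap1-4 and Krtap1-5 differed by 1.68 and 2.43. In each of the 3, mutant mouse 1 lay only 0.02 to 0.33 log2 units under wild-type mouse 1. Krtap2-4 stood at -3.70, -7.52, -3.53 and -1.27 (3.21 ± 1.48), and Krtap14 at -2.20, -7.52, -2.07 and -0.70 (3.47 ± 1.84). Both mutants lay above both wild types in these genes and in Krtap15 (-2.90, -7.38, -2.86 and -1.44), each by a small margin over wild-type mouse 1. Krtap2-4, Krtap14, Krtap15, Krtap1-3 and Krtap13-1 were not well above background in wild-type mouse 2. Krtap11-1, a cortex protein, stood at 0.34, -1.49, 0.25 and 2.21 (1.80 ± 0.90). Among the KAP3 genes, Krtap3-1 stood at 0.10, -3.68, -0.18 and 2.31 (2.85 ± 1.51), Krtap3-3 differed by 1.23 and Krtap3-2 by 0.44. Krtap13-1, Krtap26-1 and Krtap12-1 had the same order with differences of 2.62, 1.48 and 0.88. The KAP10 genes, known from the hair cuticle, stayed level, with Krtap10-4 at 1.45, 1.01, 1.08 and 1.59 and Krtap10-10 at 2.05, 1.87, 1.91 and 2.31. Krtap13 was not well above background on any array, and Krtap24-1 was on 1 array of each genotype.

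Of the 16 ultra-high sulphur KAP genes, all had a higher mean in the mutants, beside 57.1% of all genes on the array. Their median difference was 2.09, from medians of -0.20, -3.04, -0.66 and 1.66. The KAP4 genes, proteins of the cortex, had both mutants above both wild types in 6 of 7, beside 15.8% of all genes on the array. Their median difference was 2.64. Krtap4-2 stood at -1.997, -5.91, -1.73 and 0.82 (3.49 ± 1.56, adjusted p = 0.809). Krtap4-9 stood at -3.25, -5.69, -2.57 and 0.32 (3.34 ± 1.27), and Krtap4-7 at -0.98, -4.75, -0.72 and 1.62 (3.31 ± 1.48). Neither Krtap4-2 nor Krtap4-9 was well above background in wild-type mouse 2, and the filter on dim probes kept both through the mutants. Mutant mouse 2 was again far above the others, and mutant mouse 1 stood a fraction of a unit above wild-type mouse 1. Krtap4-8 stood at 1.43, 0.54, 1.64 and 3.77 (1.72 ± 0.77), a smaller span for the lack of a deep low in wild-type mouse 2. Krtap4-1 and Krtap4-16 differed by 2.03 and 2.64. Krtap4-6 was well above background only in mutant mouse 2 (-7.20, -7.51, -5.86 and -4.05).

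The KAP5 genes, ultra-high sulphur proteins of the cuticle, had mutant mouse 1 below wild-type mouse 1 in 5 of 5, as 47 of the 70 members did. Over all genes on the array mutant mouse 1 was above wild-type mouse 1 in 19893 of 34738. Krtap5-2 stood at 2.16, -0.60, 1.28 and 3.72 (1.72 ± 1.23). Krtap5-5 stood at 1.48, -2.07, 0.51 and 3.28 (2.19 ± 1.51), and Krtap5-3 at 2.36, 1.25, 1.66 and 3.05 (0.55 ± 0.60). Krtap5-1 and Krtap5-4 differed by 1.74 and 1.69. Krtap17-1, another cuticle protein, stood at 0.40, -2.56, -1.02 and 1.40 (1.28 ± 1.28). The KAP9 genes Krtap9-1, Krtap9-3 and Krtap9-5 differed by 2.14, 2.76 and 1.77, each with mutant mouse 1 slightly below wild-type mouse 1.

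The 13 genes of the high glycine-tyrosine families split. In families other than KAP19, mutant mouse 2 was above every other mouse in all 8 genes. Krtap7-1 had the largest difference of all members, at -2.35, -7.34, -2.25 and 0.23 (3.84 ± 1.86, adjusted p = 0.833), with its wild-type mouse 2 value not well above background. Krtap22-2 stood at 0.01, -3.49, 0.72 and 2.71 (3.46 ± 1.35), and Krtap8-1 at 0.42, -2.22, 0.84 and 2.93 (2.79 ± 1.13). Krtap20-2 stood at 3.04, 0.51, 2.82 and 4.62 (1.94 ± 1.04). Krtap6-1, Krtap6-2, Krtap6-5 and Krtap21-1 differed by 2.56, 1.42, 1.99 and 1.84. In the KAP19 genes mutant mouse 2 was above wild-type mouse 1 in 0 of 5 (20785 of 34738 on the array), and the median difference was 0.06. Krtap19-2 stood at 2.96, 1.46, 2.46 and 2.73, and Krtap19-4 at 2.54, 2.26, 2.30 and 2.18. Krtap19-3 shared the low of wild-type mouse 2 but not the high of mutant mouse 2 (-0.57, -5.15, -0.91 and -1.09). Krtap19-5 spanned 0.75 log2 units, and Krtap19-1, well above background in 1 mouse of each genotype, was lowest in mutant mouse 2 (-3.42, -7.10, -5.19 and -7.75).

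The remaining 5 KAP genes, whose families were not placed by composition here, were of both kinds. Krtap28-13 stood at -0.02, -3.04, -0.83 and 1.69 (1.96 ± 1.32), and Krtap28-10 at -3.51, -7.57, -4.80 and -1.92 (2.18 ± 1.66). These have the order of most members. Krtap16-3 stood at 2.25, 0.10, 1.80 and 1.96 and resembled Krtap19-2. Krtap31-1 was nearly level at -2.33, -2.83, -2.99 and -2.70, and Krtap31-2 was well above background only in wild-type mouse 1. In all, 12 of the 70 genes lacked the order with mutant mouse 2 highest and wild-type mouse 2 lowest, and 9 spanned less than 1 log2 unit.

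Each mutant was also set against wild-type mouse 1, which was the higher wild type in most members. Over all genes on the array mutant mouse 1 was above wild-type mouse 1 in 19893 of 34738. Mutant mouse 1 was above wild-type mouse 1 in 6 of 6 inner root sheath keratins (median difference 0.56, from 0.26 to 1.16) and in 6 of 7 KAP4 genes (median 0.26). It was above in 3 of 10 cortex keratins (median -0.26), 4 of 17 high sulphur (-0.28), 6 of 16 ultra-high sulphur (-0.26) and 4 of 13 high glycine-tyrosine genes (-0.24). It was above in 0 of 5 KAP5 genes (-0.88) and was not above in Krt82, while Krt32 was not well above background in mutant mouse 1, so that its value there rests on a dim spot. Mutant mouse 2 was above wild-type mouse 1 in 61 of the 70 genes, beside 20785 of 34738 on the array. The median difference was 3.63 in the inner root sheath keratins, 2.06 in the cortex keratins and 0.80 in the high glycine-tyrosine genes. These are differences between single mice, chosen after the values were seen, and were given no test.

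**Figure D4:**
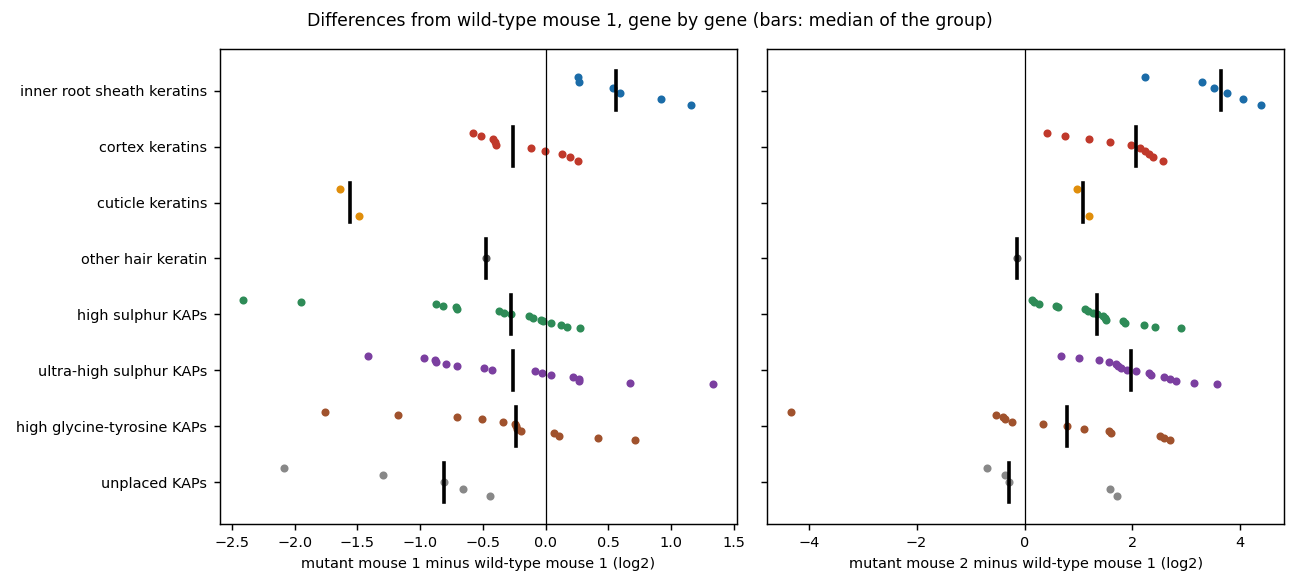
Log2 difference of mutant mouse 1 (left) and mutant mouse 2 (right) from wild-type mouse 1, gene by gene (points) with the median of each group (bars). The inner root sheath keratins lie right of 0 in both panels, while in the left panel the medians of the other groups lie left of 0, where the cuticle keratins include Krt32, a dim spot in mutant mouse 1.

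For 1 probe the spread between mice can be set against the error within an array. This probe of Krtap6-5 (A_51_P104681, chr16:89047693-89047752 on mm9) was spotted 10 times on every array. Its spots had a mean of -0.89 (SD 0.12) in wild-type mouse 1, -4.80 (SD 0.42) in wild-type mouse 2, -0.65 (SD 0.09) in mutant mouse 1 and 1.07 (SD 0.05) in mutant mouse 2, over 10 spots each. All 10 spots of wild-type mouse 2 lay below, and all 10 of mutant mouse 2 above, every spot of the other arrays. Wild-type mouse 2 was the dimmest array for the family: 13 of the 64 tested genes were not well above background there, and all 64 were on each of the other 3 arrays. The filter sets part of this, since a gene dim in wild-type mouse 2 was tested only if well above background in both mutants. For these 13 genes the level in wild-type mouse 2, and so the fold change, rests on dim spots. Which of these spots hold surrogate intensities was not read here.

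**Figure D5:**
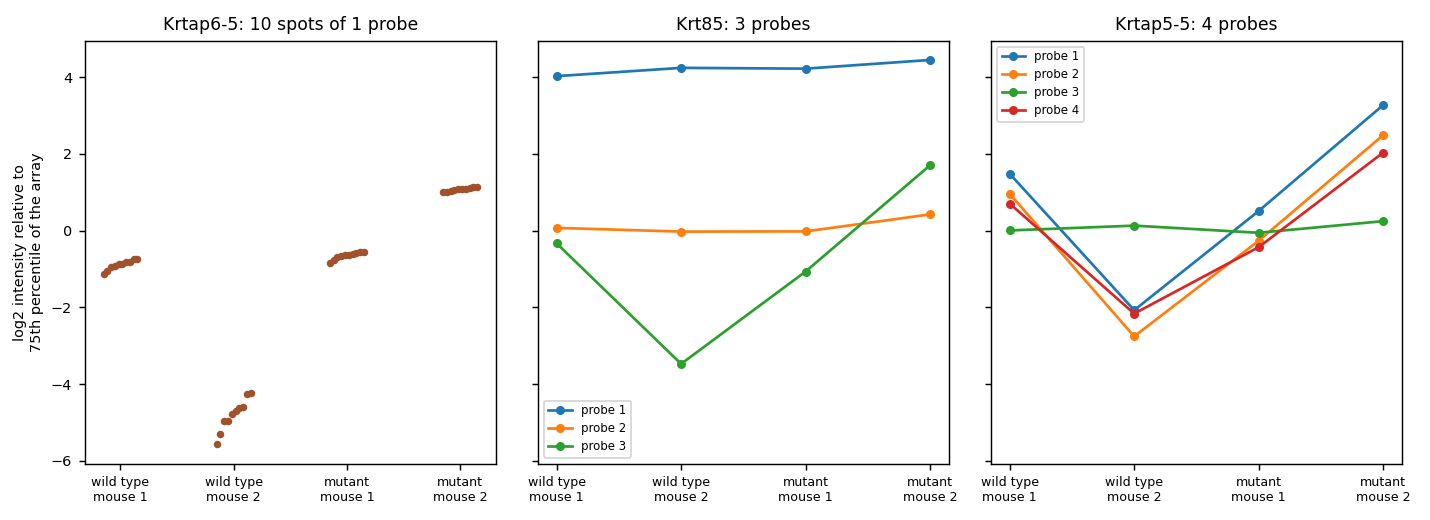
Level on the log2 scale, with the 75th percentile of each array at 0 (vertical axis), in the 4 mice for the 10 spots of a Krtap6-5 probe (left, each point a spot), the 3 probes of Krt85 (middle) and the 4 probes of Krtap5-5 (right), with lines joining the values of 1 probe. The spots of 1 array lie close together, and 1 of the 3 Krt85 probes and 3 of the 4 Krtap5-5 probes show the low in wild-type mouse 2 and the high in mutant mouse 2.

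The 3 probes of Krt85 disagreed. The brightest, used for the gene, differed by 0.20 between genotypes and that at chr15:101346117-101346176 by 0.18 (0.07, -0.02, -0.02 and 0.42). The other, at chr15:101261695-101261754 and thus beside the Krt87 probe, stood at -0.33, -3.47, -1.07 and 1.71, a difference of 2.22. Which of them reads Krt85 alone was not tested, so the values of Krt85 are uncertain. Krtap5-5 had 4 probes, of which 3 differed by 2.19, 2.01 and 1.53 and A_66_P101703 by 0.03. The brightest of these lies in the damaged corner and reads a repeat of the coding sequence rich in tgc and tgt, the cysteine codons that give the ultra-high sulphur proteins their name (chr7:149415298-149415357, minus strand):
Krtap5-5 (A_55_P2098150): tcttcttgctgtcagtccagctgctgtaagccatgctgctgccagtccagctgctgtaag
The probes that differed by 2.01 and 1.53 lie outside the corner and had the same order of mice. They are similar in sequence: the first matched the corner probe at 94.4% over 54 bases and the second at 88.9% over 45. The second also matched a Krtap5-1 probe at 84.3% over 51 bases. Whether these probes read Krtap5-5 alone was not tested.

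Several members are near copies of each other, and the probe sequences of a pair are shown for this reason. The brightest probes of Krtap6-5 (chr16:89047852-89047911, minus strand) and Krtap6-1 (chr16:89032140-89032199, plus strand) end at the stop codon of these glycine-tyrosine-rich proteins. They share 57 of 60 bases (95%, capitals), and whether each probe reads only its own gene was not tested:
Krtap6-5 (A_55_P2119761): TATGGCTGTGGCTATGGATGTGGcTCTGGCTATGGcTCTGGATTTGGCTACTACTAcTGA
Krtap6-1 (A_55_P2119764): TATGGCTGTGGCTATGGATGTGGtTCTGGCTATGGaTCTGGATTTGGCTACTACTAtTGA
Krtap6-5 stood at 2.90, -0.17, 2.71 and 4.00 and Krtap6-1 at 2.05, -1.40, 2.12 and 3.65. A further probe of each, outside this stretch, also had mutant mouse 2 highest and wild-type mouse 2 lowest. Probes of 6 pairs of different members, 9 genes in all, matched at 80% or more over an overlap of at least 40 bases.

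Of the members 69 have a probe with a listed position and lie in 6 clusters of the mm9 build (the probe used for Krt85 has none), and these positions gave a way to look at genes that the names had missed. The largest cluster, at chr11:99177867-99963389, held 31 members (median difference 2.42, mutant mouse 2 highest and wild-type mouse 2 lowest in 29), and that at chr16:88611735-89570480 held 21 (1.84, 14 in that order). Smaller clusters lay at chr15:101263556-101623802 (7 members), chr7:149360743-149490408 (5), chr10:77183942-77299996 (3) and chr1:83038183-83057987 (2). Within these spans 59 genes outside the name list were tested, many of them predicted genes and transcripts known by a number. Of these, 29 (49.2%) were higher by over 1 log2 unit in wild-type mouse 1 than 2 and in mutant mouse 2 than 1, and of 23509 genes tested outside the spans 47 were (0.2%). Examples in the chromosome 11 cluster are Gm11554 at -2.42, -5.76, -1.54 and 2.01 and Gm11567 at 0.16, -3.79, 0.20 and 3.12. Non-hair keratins of the same spans did not follow: Krt10, the suprabasal keratin of the epidermis, stood at 8.14, 8.21, 7.96 and 8.13 and Krt5, the basal keratin, at 8.58, 8.76, 8.69 and 8.85. In the chromosome 15 span 0 of 9 other genes had the pattern, and in that on chromosome 11 it was 15 of 24. It was 7 of 18 on chromosome 16, 5 of 6 on chromosome 10, where the KAP10 genes were level, and 1 of 1 on chromosomes 1 and 7 each. These examples were chosen after their values were seen, and the pattern itself after those of the members were seen.

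By their current symbol, 3 of these 59 genes, listed on the array under other names, belong to the family. Krtap16-1 stood at 0.56, -2.98, -1.19 and 1.47, with the order of most members. Krtap19-9b (-0.15, -4.09, -0.37 and -0.31) shared only the low of wild-type mouse 2, as Krtap19-3 did. Krt72, the inner root sheath keratin missing above, stood at 0.16, -0.29, -0.40 and 1.20. Mutant mouse 1 was its lowest mouse, so Krt72 did not share the order of the other inner root sheath keratins.

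Since most members shared an order of mice, their promoters were read from RefSeq (GRCm38.p6, not the build of the probes), which held 58 of the 70. In windows of 250 bases before to 50 after the start, searched on both strands, TATAAA, the core of the TATA box, was found in 48 of 58 (82.8%) and in 14.2% of 27025 promoters in all. With the first base 40 to 20 before the start, on the gene's strand, it was found in 35 of 58 (60.3%) and in 2.22% of all. CTTTGA, a core of LEF and TCF sites, was found in 29.3% and 16.2%, and ATTGG, the inverted CCAAT box, in 43.1% and 37.9%. Such matches are letters in a window and not tested sites. The 100 bases before the start of members with the order of most (Krt71, Krt27, Krtap8-1, Krtap4-7 and Krtap3-1) and of level members (Krtap10-4 and Krtap19-4) follow, all on the minus strand, with TATAAA in capitals:
Krt71 (chr15:101743098-101743197): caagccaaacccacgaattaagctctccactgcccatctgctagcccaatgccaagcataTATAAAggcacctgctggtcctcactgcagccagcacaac
Krt27 (chr11:99351119-99351218): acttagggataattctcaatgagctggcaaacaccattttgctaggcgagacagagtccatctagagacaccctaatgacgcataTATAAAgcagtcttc
Krtap8-1 (chr16:89487953-89488052): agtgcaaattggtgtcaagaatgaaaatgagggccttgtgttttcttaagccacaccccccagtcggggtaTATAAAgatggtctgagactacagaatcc
Krtap4-7 (chr11:99644090-99644189): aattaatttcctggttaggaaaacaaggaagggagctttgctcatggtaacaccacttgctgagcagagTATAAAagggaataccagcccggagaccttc
Krtap3-1 (chr11:99566631-99566730): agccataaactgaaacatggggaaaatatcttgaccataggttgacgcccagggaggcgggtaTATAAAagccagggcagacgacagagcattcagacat
Krtap10-4 (chr10:77827071-77827170): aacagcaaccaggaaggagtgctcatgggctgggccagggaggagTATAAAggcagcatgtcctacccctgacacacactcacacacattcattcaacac
Krtap19-4 (chr16:88885090-88885189): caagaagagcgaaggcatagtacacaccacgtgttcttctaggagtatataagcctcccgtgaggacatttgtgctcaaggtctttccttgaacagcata
The level gene Krtap10-4 also holds the motif, and Krtap19-4 does not hold these letters in the stretch shown.

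Other genes of the hair shaft and its sheath were taken from a list of 18, of which 14 were tested and 0 called. Mutant mouse 2 was highest and wild-type mouse 2 lowest in 8 of the 14, beside 7.18% of the genes tested, and 13 of 14 had a higher mean in the mutants, beside 53.5%. Trichohyalin (Tchh), which binds the filaments of the inner root sheath together, stood at 1.95, 0.31, 2.60 and 5.43 (2.89 ± 1.10, adjusted p = 0.774). Padi3, the enzyme that converts arginines of trichohyalin to citrulline, stood at -2.61, -4.42, -2.05 and 0.88 (2.93 ± 1.15, adjusted p = 0.781). Crym, a thyroid hormone binding protein made in the follicle, stood at -1.33, -2.35, -0.85 and 1.96 (2.40 ± 1.002). These genes had the order of the inner root sheath keratins, with mutant mouse 1 just above wild-type mouse 1. Lgals7 (7.30, 7.39, 7.42 and 7.69) and Krt79 (7.40, 7.43, 7.17 and 7.37), expressed more widely in stratified epithelium and in the upper follicle, were nearly level. Prr9 at 2.21, 1.29, 2.52 and 4.97 and S100a3, a calcium-binding protein of the cuticle, at 0.70, -1.06, 0.03 and 2.29 were named after their values were seen.

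The regulators of hair differentiation spanned less than the keratins, with a median of 0.42 log2 units from the lowest to the highest mouse, against 0.32 over all genes tested. Of 15 transcription factors tested, 0 were called and the median difference was 0.08. Mutant mouse 2 was highest and wild-type mouse 2 lowest in 5 of 15, beside 7.18% of the genes tested. Hoxc13, which switches on hair keratin genes, stood at -1.54, -2.08, -1.93 and -0.97 (0.36 ± 0.38, adjusted p = 0.894). Sox21, a factor of the hair cuticle, stood at -0.79, -0.80, -0.73 and -0.35 (0.26 ± 0.16), and Ovol1 at 1.17, 1.20, 1.48 and 1.64 (0.38 ± 0.11, adjusted p = 0.707). Gata3, needed for the inner root sheath, stood at 4.39, 4.33, 4.26 and 4.49, and Hr at 4.05, 4.11, 4.00 and 4.27. Hoxc13 thus had the order of the hair genes over a span of 1.10 log2 units, and the others named spanned less than 0.5. Of matrix and papilla signals 12 were tested, with a median difference of -0.02 and 0 in that order, and of 7 stem cell genes 1 was in it.

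Markers of other cells were read beside these results, as sums of linear levels in which 1 is the 75th percentile of the array. The melanocyte list, of cells that give pigment to the growing hair, was higher in both mutants in 8 of 9 genes (beside 18.9% of the genes tested), at an unadjusted p under 0.05 in 8 (beside 2.96%) and with 0 called. The order of the hair genes was found in 6 of 9, beside 7.18%. Its sum was 8.58 and 7.62 in the wild types and 15.6 and 19.1 in the mutants, so the mutants were close to each other where the hair genes were not. The neutrophil list summed to 125 and 156 in the wild types and 368 and 361 in the mutants, through S100a8 and S100a9, which inflamed keratinocytes also make, with 0 of 5 in the order. The sums of the wound keratins Krt6a, Krt6b and Krt16 were 458 and 755 in the wild types and 928 and 867 in the mutants, with 0 of 3 in the order. The 6 sebaceous gland genes summed to 58.6 and 51.0 in the wild types and 33.1 and 39.3 in the mutants, with 0 in the order. All 6 skeletal muscle genes were lowest in mutant mouse 2, the mouse with the highest hair genes, by 0.31 to 0.69 log2 units under mutant mouse 1. Their sum was 248 and 214 in the wild types and 233 and 162 in the mutants. In the basal, suprabasal, proliferating, muscle, cartilage and adipocyte lists 0 genes had that order, and in the fibroblast list 1 of 5 had. Every gene of these lists passed the filter on dim probes, and the part of these cells in the result was not tested.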

How the data were processed

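The members, lists and tests were chosen with earlier results of these data known. The authors deposited spot intensities processed by Agilent Feature Extraction 10.7.3.1 (background subtracted, surrogates for dim spots), with raw intensities and flags of 0 or 1, per the file headers. Their deposited series table holds the ratio of a spot to its array's median. Probe positions are on mm9 (NCBI37), per the file headers.

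Here 3671 control spots and outlier spots were left out, the log2 of the deposited intensity was taken minus the array's 75th percentile (588.67 to 663.55), and spots of a probe were averaged. Probes with both arrays of a genotype well above background were tested (33675 of 55596). The brightest tested probe stood for a gene, or the brightest of all where none was tested. Symbols were updated through RefSeq accessions (Krtap16-8 became Krtap6-5). Mutant minus wild type was fitted with limma 3.58.1 (lmFit, eBayes, 2 residual and 2.50 prior degrees of freedom) in R 4.3.3, two-sided, with Benjamini-Hochberg adjustment over 23632 genes. On simulated data it recovered 98% of genes changed by 2 log2 units at the variances of all genes (median standard error 0.133). The tested members have a median standard error of 1.24, so this share does not apply to them.

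Named were, per group, up to 4 of the brightest and 3 of the most different genes, the smallest p, and per list 3 of the most different and 2 of the brightest. Other genes named were chosen after their values were seen. KAP16, KAP28 and KAP31 were left unplaced since no protein sequence was used here. The sequence of 1 probe is not reported here. The labels' replicate numbers state no pairing. Alternatives were 3 other scalings, normexp (offset 50), the series table, 2 other filters on dim probes, the mean of probes, trend and robust variances, array weights, a replicate block, each mouse left out and the damaged corner left out. Added after the data were seen were a crossed block, probes without a position left out and genes taken by current symbol.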

Additional observations from a re-analysis of the deposited data

How the results depend on the processing

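Under each of 19 alternatives 0 members passed the threshold of limma's test, and the smallest adjusted p of a member was 0.0713 (Krt71, crossed block). Other than with a mouse left out, the median difference over the members ran from 1.44 (normexp) to 1.91 (damaged corner left out, which leaves 69 members). With each mouse left out in turn it ran from 0.59 to 3.15, and the SD between mice of the median level was 1.84. Members at an unadjusted p under 0.05 numbered 2 in the main fit, beside 2.96% of the genes tested that were higher and 3.55% that were lower. They numbered 13 with normexp and 7 with centring on the median and with the series table. The count was 1 with quantile normalization, with array weights and with trend and robust variances. The shares over all genes under these alternatives are not given, so these counts are a description only. Over all genes, 4 were called, 14 with trend and robust variances, 80 without mutant mouse 1 and 0 without wild-type mouse 1 or 2. Fits without 1 mouse assume that the lone mouse varies like the other group.

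With the replicate number as a block, the members' count stayed 0 and their median difference 1.88, with 1 gene called over all. The same-numbered mice deviated with a correlation of -0.20 (-0.13 without the members). A crossed pairing, of wild-type mouse 2 with mutant mouse 1, gave 0 members called and 52 at an unadjusted p under 0.05 in limma's fit. It was chosen after the order of the members was seen, so this count is a description only. The share over all genes is not given.

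Of 1139 values of members under the alternatives 18 changed sign, in 12 genes, each with a mouse left out, and the cause was not tested. With each mouse left out in turn the difference ran from -0.49 to 2.12 in Krt82, -0.0443 to 0.35 in Krtap10-10, -0.15 to 0.36 in Krtap10-4, -0.68 to 2.43 in Krtap12-1, -0.28 to 1.17 in Krtap3-2, -0.20 to 2.75 in Krtap17-1, -0.15 to 1.24 in Krtap5-3, -0.37 to 1.14 in Krtap19-2, -0.43 to 4.14 in Krtap19-3, -0.31 to 0.44 in Krtap19-5, -0.42 to 3.26 in Krtap6-2 and -0.36 to 1.78 in Krtap16-3. Outside the family it ran from -0.12 to 0.84 in Hoxc13, -0.10 to 0.13 in Gata3 (-0.018 with quantile normalization) and -0.080 to 0.19 in Hr. Dim spots limit the genes near background, and 4 arrays limit the rest.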

Other observations

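Of the 76 genes outside the name list that were higher by over 1 log2 unit in wild-type mouse 1 than 2 and in mutant mouse 2 than 1, 47 lay outside the members' clusters. Among them were Gprc5d, a receptor of cells that make hard keratin, at -1.58, -3.08, -1.26 and 1.02, and Vsig8, a membrane protein of hair-forming cells, at 1.65, -1.46, 0.11 and 2.38. Ifi202b, an interferon-induced gene, stood at 4.08, 1.20, 1.31 and 3.96, so that its high pair and its low pair each held a mouse of both genotypes. The predicted gene Gm7897 was paired the same way, at 0.78, -3.48, -3.49 and 0.91. In the median over the members the middle mice lay between the extremes instead. Single members differed from this: in Krt82, Krt32, Krtap12-1 and Krtap24-1 mutant mouse 1 lay closer to wild-type mouse 2 than to wild-type mouse 1. All genes named here were chosen after their values were seen, and no test was made on these pairings.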
